A study of Mus musculus with 8 samples.

Results

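Wnt proteins are secreted, lipid-modified ligands that bind Frizzled receptors together with the coreceptors Lrp5 and Lrp6, or with Ror receptors, at the cell surface. In the canonical branch this stabilises beta-catenin (Ctnnb1), which the Axin proteins otherwise mark for destruction, and beta-catenin then acts with Tcf and Lef factors on target genes. R-spondins and their Lgr receptors keep Frizzled at the surface by holding off the ubiquitin ligases Znrf3 and Rnf43, while secreted antagonists of the Sfrp, Dkk, Wif1 and Notum types capture or inactivate ligands or block the coreceptors. In the kidney, Wnt9b and Wnt4 are known for inducing nephrons during development, and the pathway is known to be active again after tubule injury.

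The genes described are these Wnt ligands, receptors, antagonists and core transducers, chosen by symbol: names that begin with Wnt, Fzd, Sfrp, Dkk or Rspo and a number, Lgr4 to Lgr6, Tcf7 and its relatives, and Lrp5, Lrp6, Axin1, Axin2, Ctnnb1, Lef1, Znrf3, Rnf43, Notum, Nkd1, Nkd2, Wif1, Ror1 and Ror2. They number 62 of the 42416 gene identifiers in the count files. Of these, 33 had at least 10 counts in at least 4 libraries and were tested, 10 had no count in any library, and the other 19 lay between. The test was not open to members below the filter, so counts of tested members do not stand for all 62.

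Each library held RNA of sorted tubule pieces from the distal convoluted tubule of mice, the short stretch in which a thiazide-sensitive cotransporter takes up NaCl, in work on the renal side effects of drugs that inhibit calcineurin. The 4 Control animals were Cnb1fl wt and the 4 animals labelled KO were Cnb1fl Tg/Tg, where Cnb1 is another name of Ppp3r1, the regulatory subunit of the phosphatase calcineurin. All 8 also carried NCCcre Tg/+, a Cre transgene named for the NaCl cotransporter, and TOMATO Tg/+, a reporter. Tamoxifen was given by mouth to all of them, 2 mg daily on 5 days, 3 weeks before the experiment, and 1000 fragments went into a library. Each label carried its own animal number, and the animals' ages are not among the labels. The comparison asks what loss of calcineurin in this segment did to its transcripts.

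Total counts ranged from 18161442 to 45150953 per library. Levels are given as CPM, read counts scaled to a common library size, with sizes adjusted by the trimmed-mean method (TMM), and between genes as RPKM, CPM per kilobase of summed exon length. The targeted gene Ppp3r1 stood at 108, 97.4, 99.8 and 84.3 CPM in Control libraries 1 to 4 and at 80.8, 74.0, 97.7 and 92.5 CPM in KO libraries 1 to 4, so the groups overlapped and the gene did not check the labels (log2 fold change -0.18 ± 0.13 (SE), edgeR adjusted p = 0.549). Slc12a3, the NaCl cotransporter that defines the segment, lay between 5652 and 8040 CPM in Control and between 3910 and 8080 CPM in KO, while Pvalb, a marker of its early part, lay between 179 and 988 CPM in Control and at 2.14 CPM or less in KO. On the first principal component of the 500 most variable genes KO library 4 lay farthest out, and on the second Control library 1 did. No pair of libraries held identical counts.

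Of the 33 tested members, 1 rose (the receptor Fzd8) and 1 fell (the secreted antagonist Sfrp1) in the KO libraries at an adjusted p under 0.05 by edgeR's quasi-likelihood test (Benjamini-Hochberg over all 14444 genes tested). Over all genes tested, 2.06% passed, 1.23% higher and 0.838% lower. The median log2 fold change was -0.05 over the 33 members and -0.02 over all genes. In 5 members the CPM ranges of both groups were fully apart, 3 higher (Fzd8, Wnt4, Znrf3) and 2 lower (Sfrp1, Dkk3), and over all genes this held for 9.4%, 5.6% higher and 3.8% lower. At an unadjusted p under 0.05 there were 8 members, 5 higher and 3 lower, against 13.9% of all genes. DESeq2 called 5.22% of all genes and limma-voom 3.54%. Across the 17 other settings tried, which include both of these, 1 to 3 members were called.

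**Figure D1:**
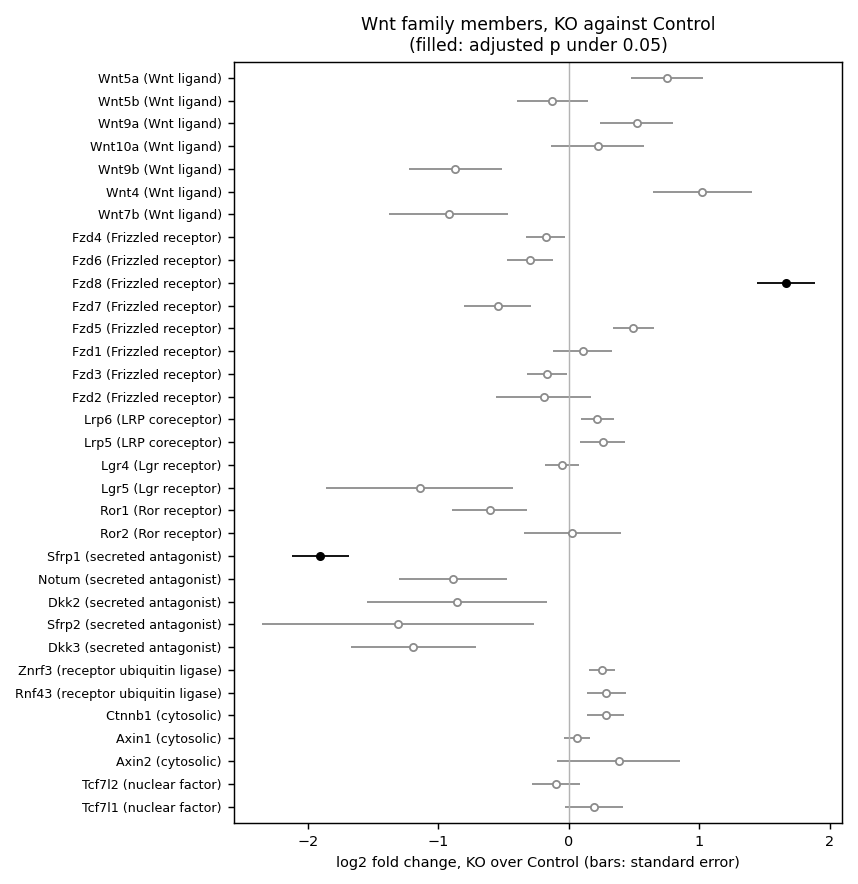
Log2 fold change of KO over Control for the 33 tested members, grouped by role, with the standard error of each (n = 4 libraries per group). Filled points are the 2 members with an adjusted p under 0.05, Fzd8 at 1.66 and Sfrp1 at -1.90, and the open points lie between -1.31 and 1.02.

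Sfrp1 (ENSMUSG00000031548, chromosome 8, 23411502 to 23449632, plus strand, GRCm38) encodes secreted frizzled-related protein 1, which binds Wnt ligands through a domain like that of the Frizzled receptors and so keeps them from their receptors. It stood at 1129, 1014, 1196 and 1572 CPM in Control libraries 1 to 4. In KO libraries 1 to 4 it stood at 232, 309, 444 and 327 CPM. The lowest Control library held more than 2-fold the level of the highest KO library, KO library 3. Its mean of 1228 ± 241 CPM fell to 328 ± 87.8 CPM in KO (SD, n = 4 per group), 3.74-fold lower, with a log2 fold change of -1.90 ± 0.22 (SE, edgeR adjusted p = 0.00503). It was called under all 17 other settings tried, at log2 fold changes from -2.10 to -1.76.

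Per length, Sfrp1 was the most abundant member of all in Control, at 281 ± 55.2 RPKM, above Ctnnb1 at 118 ± 5.73 RPKM. In KO the order of those means was the other way round, with Sfrp1 at 75.0 ± 20.1 and Ctnnb1 at 143 ± 23.7 RPKM (SD, n = 4 each). Sfrp1 nonetheless remained by far the main secreted antagonist. It took 97.9% to 99.4% of the summed RPKM of the 10 Sfrp, Dkk, Wif1 and Notum genes in the Control libraries and 95.3% to 98.6% in the KO libraries.

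Marker levels of tubule segments are given beside this fall. The summed level of 6 markers of the thick ascending limb and macula densa, the neighbouring upstream segment, ranged from 7402 to 12154 CPM in Control and from 2711 to 5408 CPM in KO. None of the 6 was at 0, and most of the sum was Umod, which encodes uromodulin and fell by 1.19 ± 0.25 (SE) on the log2 scale (edgeR adjusted p = 0.0413). The cotransporter Slc12a1, which defines that limb, overlapped between the groups (639 to 1263 CPM in Control, 254 to 896 CPM in KO, log2 fold change -0.77, adjusted p = 0.368). The 10 markers of the distal convoluted tubule summed to 20470 to 23236 CPM in Control and 10246 to 15752 CPM in KO, and 5 of them fell (Pvalb, Calb1, Trpm6, Klhl3 and Wnk4). The other 5 did not pass. Egf lay at 5854 to 7800 CPM in Control and 1303 to 4261 CPM in KO (log2 fold change -1.36, edgeR adjusted p = 0.0555). Slc12a3 and Emx1 had log2 fold changes of -0.405 and -0.11. Tmem52b went the other way, at 2654 to 2956 CPM in Control and 3616 to 3852 CPM in KO (log2 fold change 0.41, edgeR adjusted p = 0.142). Sall3 had 0.17, and the log2 fold change was negative for 8 of the 10. The sums of proximal tubule markers (1108 to 4101 CPM in Control, 1140 to 2609 CPM in KO) and of intercalated cell markers (373 to 512 and 304 to 651 CPM) overlapped, with 0 genes past the threshold. Connecting tubule and principal cell markers summed to 267 to 416 CPM in Control and 116 to 274 CPM in KO. These ranges overlapped narrowly, and 0 genes passed. Log2 fold changes were negative for all 6 of these markers, all 7 of the proximal tubule and 4 of 6 of intercalated cells. In bulk fragments, fewer cells of a type and less RNA per cell cannot be told apart, and the part of these markers in the fall of Sfrp1 was not tested.

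**Figure D2:**
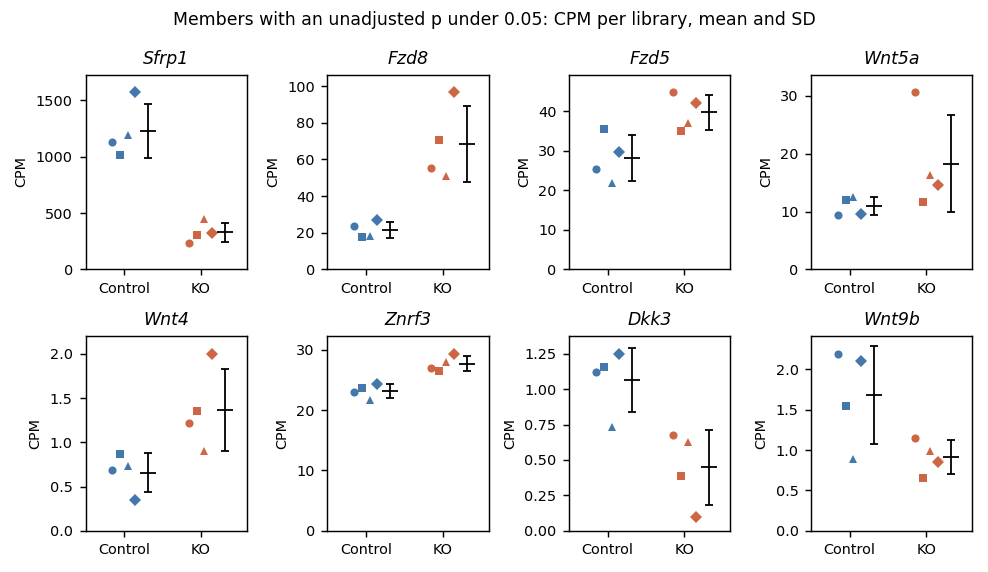
CPM in each library (points: circle, square, triangle and diamond for libraries 1 to 4) of the 8 members with an unadjusted p under 0.05, with the mean and SD of each group (n = 4) beside the points. The groups are apart for Sfrp1, Fzd8, Wnt4, Znrf3 and Dkk3, and they overlap for Fzd5, Wnt5a and Wnt9b. Each vertical axis starts at 0 and has its own scale.

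Fzd8 (ENSMUSG00000036904, chromosome 18, 9212163 to 9218136, plus strand) encodes a Frizzled receptor that can bind canonical Wnt ligands together with Lrp5 or Lrp6. In Control libraries 1 to 4 it stood at 23.7, 17.8, 18.1 and 26.8 CPM. Its values were 55.4, 70.8, 50.7 and 96.6 CPM in KO libraries 1 to 4, and each KO library lay above each Control library. It rose from 21.6 ± 4.39 to 68.4 ± 20.7 CPM (SD, n = 4 each), 3.16-fold, with a log2 fold change of 1.66 ± 0.22 (SE, edgeR adjusted p = 0.00995). The call was lost when the range of the animal number was added as a block (log2 fold change 1.78, edgeR adjusted p = 0.0579). Control library 4 was alone in its number range, so with the block it did not inform the genotype contrast. Fzd8 kept its call under the other 16 settings, at 1.45 to 1.82.

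KO library 4, the library with the highest Fzd8 level, also held the most transcripts of dividing cells. The 7 markers of dividing cells all rose, and they summed to 7.85 to 12.0 CPM in Control and to 46.6, 67.5, 27.1 and 93.5 CPM in KO libraries 1 to 4. KO library 3 was lowest among the KO libraries in both that sum and Fzd8. The 6 injured tubule markers, most of their sum being Krt8, had the same lowest and highest KO libraries. They summed to 75.0 to 114 CPM in Control and to 229, 149, 85.0 and 258 CPM in KO libraries 1 to 4. Of the 4 tested, the keratins Krt8 and Krt18 had positive log2 fold changes (1.08 and 0.71). Havcr1 and Vcam1 had negative ones (-1.14 and -0.40), and 0 passed the threshold. On the first principal component KO libraries 1 to 4 lay at 13.8, 19.3, -1 and 42.9, the same order as for Fzd8. The 7 leukocyte markers summed to 17.4 to 24.5 CPM in Control and 26.7 to 78.6 CPM in KO, highest in KO library 1. Csf1r alone made up 72.3 CPM of the sum in KO library 1. The T cell gene Cd3e was at 0.0771 CPM or less in every library. Of the 5 tested, 3 had positive log2 fold changes, 2 (Lyz2 and Cd74) had negative ones, and 0 passed the threshold. None of the 7 leukocyte or 7 dividing cell markers was at 0 in all libraries. The part of any of these lists in the rise of Fzd8 was not tested.

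The change moved Fzd8 within the order of the Frizzled receptors. In every library Fzd4, which also serves as the receptor of the ligand Norrin, was first, at 47.1 ± 5.58 RPKM in Control and 41.6 ± 6.73 RPKM in KO (SD, n = 4 each). Fzd8 ranked 4, 6, 5 and 4 among the 10 Frizzled genes in Control libraries 1 to 4 and second in all 4 KO libraries. It took 3.98% to 5.66% of the summed Frizzled RPKM in Control and 12.2%, 17.1%, 10.3% and 22.1% in KO libraries 1 to 4. Fzd4 took 60.1% to 68.7% in Control and 46.5% to 60.8% in KO.

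The other Frizzled receptors did not pass in edgeR's test of all 8 libraries. Fzd5, a receptor of canonical ligands (chromosome 1, 64730558 to 64737751, minus strand), stood at 25.5, 35.4, 21.9 and 29.8 CPM in Control libraries 1 to 4 and 44.8, 35.0, 37.1 and 42.0 CPM in KO libraries 1 to 4. Control library 2 reached into the KO range, and the log2 fold change was 0.50 ± 0.16 (SE, edgeR adjusted p = 0.181). Fzd7 stood at 27.9, 29.1, 28.2 and 34.2 CPM in Control and 12.9, 16.9, 34.0 and 17.99 CPM in KO, where library 3 alone lay among the Control values (log2 fold change -0.55, adjusted p = 0.382). Fzd4 and Fzd6 had log2 fold changes of -0.18 and -0.30. Fzd1, Fzd2 and Fzd3 had 0.11, -0.19 and -0.17. Per length over all 8 libraries, Fzd6, Fzd8, Fzd7 and Fzd5 overlapped with their neighbours in the order, Fzd3 and Fzd2 lay clearly below, Fzd9 held 2 counts and Fzd10 none.

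Levels of the ligands were low. Of 19 Wnt genes 7 were tested, none passed, and the most abundant was Wnt5a, a ligand known mainly for signalling without beta-catenin, at 1.39 ± 0.201 RPKM in Control and 2.34 ± 1.08 RPKM in KO (SD, n = 4 each). Wnt5a stood at 9.46, 12.0, 12.5 and 9.66 CPM in Control libraries 1 to 4 and at 30.6, 11.6, 16.3 and 14.6 CPM in KO libraries 1 to 4. KO library 2 lay inside the Control range and KO library 1 was about 2-fold above the other KO libraries. Its log2 fold change of 0.75 ± 0.28 (SE, edgeR adjusted p = 0.259) was 0.37 without KO library 1. Wnt4, which drives the conversion of kidney mesenchyme to epithelium, stood at 0.683, 0.866, 0.732 and 0.35 CPM in Control and 1.21, 1.35, 0.905 and 2.0 CPM in KO. The lowest KO library lay just above the highest Control library, on 7 to 59 counts per library, and the log2 fold change was 1.02 ± 0.38 (adjusted p = 0.263).

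Wnt9b, the inducing signal of the ureteric bud, had a log2 fold change of the other sign, -0.87 ± 0.36 (SE, edgeR adjusted p = 0.316). It stood at 2.19, 1.54, 0.888 and 2.10 CPM in Control libraries 1 to 4 and at 1.15, 0.655, 0.983 and 0.852 CPM in KO libraries 1 to 4, with Control library 3 inside the KO range. Wnt9a, Wnt10a and Wnt7b had log2 fold changes of 0.52, 0.22 and -0.92, and Wnt5b had -0.13, or 0.02 when scaled by library totals. From Wnt5b downward, neighbours in the order of RPKM overlapped between libraries. Wnt8b, Wnt2, Wnt6, Wnt7a, Wnt10b, Wnt11 and Wnt16 held 16 counts or fewer over all 8 libraries, 11 of the 16 Wnt8b counts being in KO library 3. Wnt1, Wnt2b, Wnt3, Wnt3a and Wnt8a held none.

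The R-spondins, which raise the amount of Frizzled at the surface, were near absent from the fragments. Rspo3 held 4 counts, all in KO library 1, Rspo4 held 2 counts and its antisense gene Rspo4os 2, and Rspo1 and Rspo2 held none. For a gene at 0 counts, the upper limit of 3 counts stands for 0.0617 to 0.157 CPM in a library, depending on its depth. Their receptor Lgr4 was nonetheless abundant, at 28.8 ± 1.21 RPKM in Control and 27.7 ± 4.61 RPKM in KO (SD, n = 4 each). The log2 fold change of Lgr4 was -0.05 ± 0.13 (SE, edgeR adjusted p = 0.871), with the opposite sign, 0.09, when library totals were used as the scaling. Lgr5, a receptor and a canonical target gene, had 75 counts in all, 50 in Control and 25 in KO, and only 1 of them in KO library 1 (log2 fold change -1.14 ± 0.72, adjusted p = 0.498). Lgr6 held 6 counts.

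**Figure D3:**
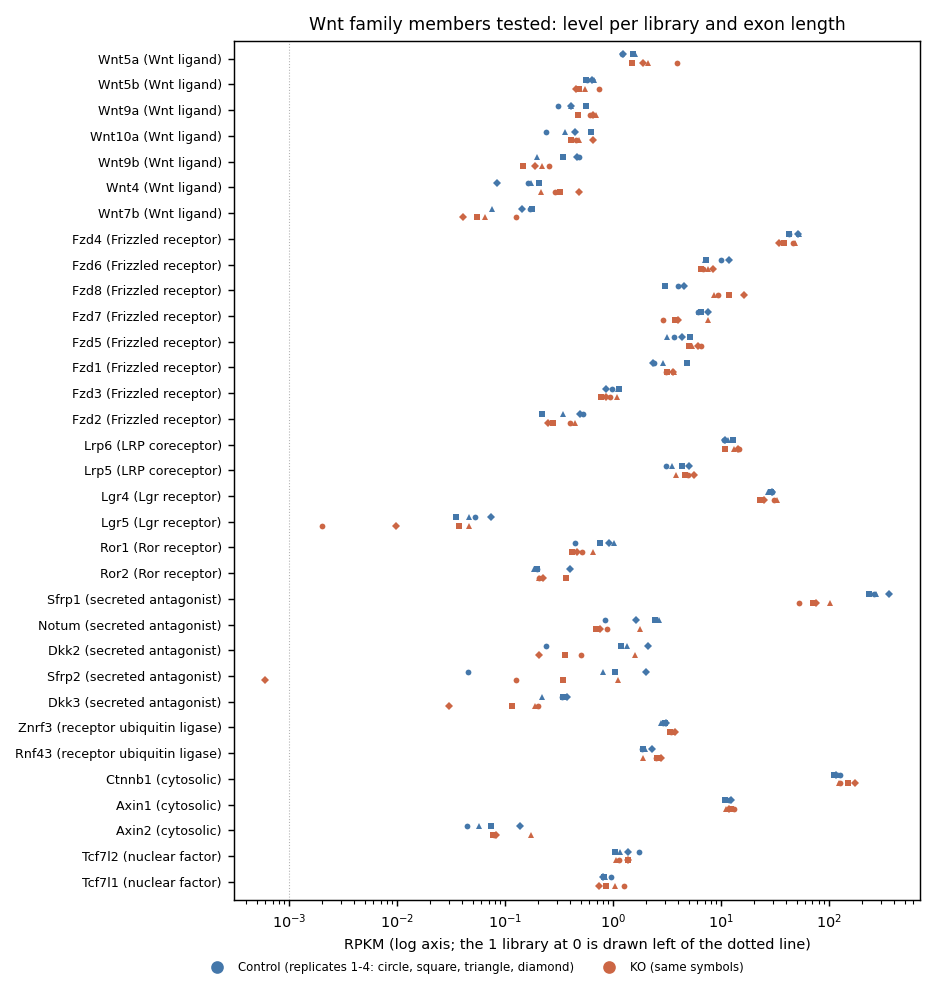
RPKM (log axis) of the 33 tested members in each library, Control above KO in each row, with the replicate given by the shape of the point. Sfrp1, Ctnnb1, Fzd4 and Lgr4 lie highest, the ligands mostly lie near or below 1 RPKM, and Sfrp2 in KO library 4 is at 0 and drawn left of the dotted line.

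Both coreceptors were present and did not pass. Lrp6 stood at 11.4 ± 1.09 RPKM in Control and 13.3 ± 1.66 RPKM in KO, and Lrp5 at 3.97 ± 0.852 and 4.75 ± 0.764 RPKM (SD, n = 4 each). Their log2 fold changes were 0.22 ± 0.13 for Lrp6 and 0.26 ± 0.17 for Lrp5 (SE, edgeR adjusted p = 0.469 and 0.526). In every library Lrp6 lay above Lrp5. Ror1 and Ror2, receptor tyrosine kinases for Wnt5a, were low, at 0.781 ± 0.253 and 0.245 ± 0.104 RPKM in Control. Their log2 fold changes were -0.61 and 0.03, the latter turning negative without any 1 of Control libraries 1 to 3 or KO library 2.

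The secreted antagonists other than Sfrp1 were at most 2.63 RPKM in any library. All 5 tested antagonists had a negative log2 fold change, also with library totals, upper quartiles or DESeq2's size factors as the scaling, but Sfrp1 alone passed. Dkk3, a divergent member of the Dickkopf family, stood at 1.12, 1.16, 0.732 and 1.25 CPM in Control libraries 1 to 4 and at 0.679, 0.386, 0.629 and 0.1 CPM in KO libraries 1 to 4. The groups did not overlap, but the values rest on 2 to 48 counts per library, and the log2 fold change was -1.19 ± 0.48 (SE, edgeR adjusted p = 0.305). Notum, an enzyme that removes the lipid from Wnt proteins, stood at 2.0, 5.90, 6.32 and 3.90 CPM in Control and 2.12, 1.66, 4.25 and 1.80 CPM in KO. Control libraries 1 and 4 lay inside the KO range (log2 fold change -0.89 ± 0.41, adjusted p = 0.377), and limma-voom with library weights placed it past the threshold (-1.33, adjusted p = 0.0498). Notumos, on the opposite strand, overlaps its exons and held 5.29% as many counts. The same holds for Tcf7l1 with Gm15401 (7.17%) and for Wnt7b with AU022754 (5.69%), and without a stated strand setting their reads cannot be told apart.

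Dkk2, which binds Lrp5 and Lrp6, varied between libraries more than between groups. It stood at 0.878, 4.33, 4.96 and 7.76 CPM in Control libraries 1 to 4 and at 1.87, 1.31, 5.94 and 0.752 CPM in KO libraries 1 to 4. Sfrp2, a relative of Sfrp1, stood at 0.0975, 2.21, 1.72 and 4.36 CPM in Control and at 0.268, 0.733, 2.40 and 0 CPM in KO, the count of 0 allowing up to 0.15 CPM. Both were highest in Control library 4 within Control and in KO library 3 within KO, and lowest in Control library 1 and KO library 4. The 5 podocyte markers, none of them at 0 in all libraries, had their highest and lowest sums in the same libraries, 5.95, 41.6, 37.2 and 125 CPM in Control and 28.2, 20.2, 81.9 and 2.10 CPM in KO. The same libraries were highest and lowest for 7 endothelium markers, at sums of 22.5, 35.9, 37.4 and 38.9 CPM in Control. In KO these were 18.3, 23.8, 47.9 and 6.97 CPM. So it was for 7 fibroblast and mural markers (Lum at 0 throughout), at 2.19, 4.48, 3.66 and 7.26 CPM in Control. In KO these were 3.13, 1.74, 4.56 and 0.251 CPM. The part of RNA from any of these cell types in the levels of Dkk2 and Sfrp2 was not tested. The log2 fold changes were -0.86 ± 0.69 for Dkk2 and -1.31 ± 1.04 for Sfrp2 (SE, edgeR adjusted p = 0.592 and 0.589).

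**Figure D4:**
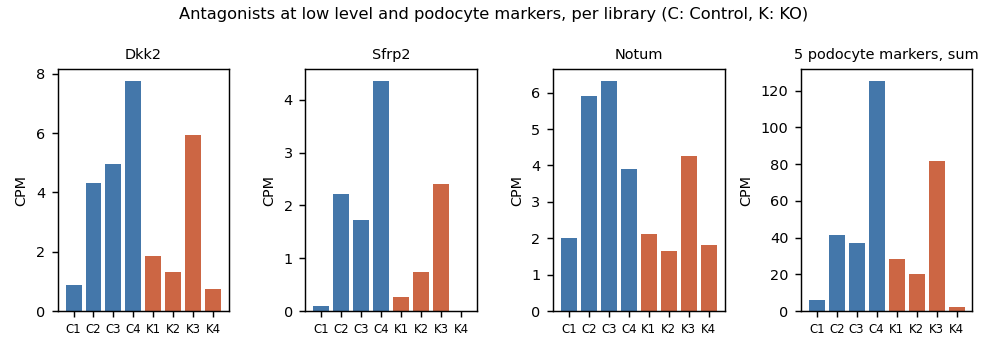
CPM per library of the antagonists Dkk2, Sfrp2 and Notum and of the sum of 5 podocyte markers (bars from 0, C for Control and K for KO libraries 1 to 4). Dkk2, Sfrp2 and the podocyte sum are highest in Control library 4 and, among KO libraries, in KO library 3. Among KO libraries those series are lowest in KO library 4. Notum is highest in Control library 3 within Control, and within KO it is highest in KO library 3 and lowest in KO library 2. The sums of endothelium and of fibroblast and mural markers, not drawn, are highest in Control library 4 within Control and in KO library 3 within KO.

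Below the filter, Dkk1, the classical inhibitor of Lrp6, had 53 counts, 27 of them in Control library 4. Wif1, a ligand-binding antagonist, had 41, of which 12 were in Control library 4 and 16 in KO library 3. Sfrp5 had 2 counts, and Dkk4 and Sfrp4 had none.

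The ubiquitin ligases that remove Frizzled from the surface had at least 248 counts in every library and did not pass. Znrf3, itself a target of the pathway (chromosome 11, 5276324 to 5444847, minus strand), stood at 23.0, 23.6, 21.7 and 24.3 CPM in Control libraries 1 to 4 and at 27.0, 26.5, 27.9 and 29.4 CPM in KO libraries 1 to 4. Each KO library lay above each Control library, but the difference was 1.19-fold and did not pass (log2 fold change 0.26 ± 0.10 (SE), edgeR adjusted p = 0.282). Rnf43, its relative and likewise a target, stood at 12.2, 12.2, 13.0 and 14.8 CPM in Control and at 16.5, 16.8, 12.3 and 18.1 CPM in KO, where library 3 lay inside the Control range (0.29 ± 0.15, adjusted p = 0.418).

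Beta-catenin itself was the most abundant transducer. Ctnnb1 stood at 648, 578, 620 and 601 CPM in Control libraries 1 to 4 and at 654, 780, 640 and 903 CPM in KO libraries 1 to 4, and KO library 3 alone lay within the Control range (log2 fold change 0.28 ± 0.14 (SE), edgeR adjusted p = 0.4). The scaffold Axin1 was at 11.6 ± 0.677 RPKM in Control and 12.1 ± 0.815 RPKM in KO (SD, n = 4 each), with a log2 fold change of 0.06. Its relative Axin2, the most widely used target gene of canonical signalling, was near the limit of detection, with 43 counts in Control and 65 in KO and a log2 fold change of 0.38 ± 0.47 (adjusted p = 0.73). The feedback inhibitors Nkd1 and Nkd2 held 19 and 3 counts, and 16 of the Nkd1 counts were in Control.

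Among nuclear partners, Tcf7l2 and Tcf7l1 were expressed at 1.32 ± 0.298 and 0.854 ± 0.0703 RPKM in Control and 1.23 ± 0.161 and 0.971 ± 0.22 RPKM in KO (SD, n = 4 each). Their log2 fold changes were -0.10 ± 0.19, or 0.06 when scaled by library totals, and 0.19 ± 0.22 (SE, edgeR adjusted p = 0.823 and 0.713). Tcf7 had 67 counts, 30 of them in KO library 1 and 13 in KO library 4, and Lef1 had 5.

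Of 67 other pathway genes 58 were tested and 0 passed by edgeR, while 8 had an unadjusted p under 0.05 (7 higher, 1 lower), against 13.9% of all genes. DESeq2 and limma-voom called 3 each, against 5.22% and 3.54% of all genes, so these counts lay near the background. Their median log2 fold change was 0.06. The smallest p belonged to Trabd2b, a membrane protease that inactivates Wnt ligands, at 262, 243, 270 and 271 CPM in Control libraries 1 to 4 and 365, 339, 365 and 378 CPM in KO libraries 1 to 4. Each KO library lay above the Control libraries, and the log2 fold change of 0.47 ± 0.10 (SE) had an edgeR adjusted p of 0.0503, just short of the threshold. It passed by DESeq2, by limma-voom, with library totals and with edgeR's own filter. The corepressor Tle4 differed by -0.75 ± 0.21 on the log2 scale (adjusted p = 0.118) and the glypican Gpc3, a cell surface proteoglycan that binds Wnt proteins, 0.74 ± 0.22 (adjusted p = 0.149).

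Of 30 genes listed as targets of the pathway, 8 of them also members, 19 were tested. Over all genes 0.838% fell, and among the tested targets 1 did. It was Bmp4, a growth factor, at 13.1, 14.9, 13.5 and 17.2 CPM in Control libraries 1 to 4 and 8.87, 6.71, 10.03 and 5.91 CPM in KO libraries 1 to 4. The groups did not overlap, and the log2 fold change was -0.89 ± 0.19 (SE, edgeR adjusted p = 0.0479). The call was lost when any 1 library other than KO library 3 was left out, when Control library 1 and KO library 4 were left out together, with library totals, with a term for how the files were named and with the animal number block (adjusted p from 0.0604 to 0.184). In 6 of the 19 the groups were fully apart, 5 higher and 1 lower, against 9.4% of all genes. The median log2 fold change was 0.38, against -0.02 over all genes. At an unadjusted p under 0.05 there were 10 targets, 9 higher and 1 lower, against 13.9% of all genes. The list was chosen with earlier results of these data known. The 9, named here after their values were seen, were Birc5 (survivin, which acts in mitosis), Cd44, Myc, Edn1, Jun, Sox9, Ephb3, Prox1 and Znrf3, at log2 fold changes of 2.58, 1.68, 1.56, 1.28, 1.03, 0.74, 0.49, 0.47 and 0.26. Birc5, Myc, Cd44 and Sox9 were lowest among KO libraries in KO library 3 and highest in KO library 4, and the rest of the 9 were not. The sum of the dividing cell markers had the same lowest and highest KO libraries, and the part of those cells was not tested. Among targets that also act in the pathway, Axin2, Znrf3, Rnf43, Lgr5 and Notum had log2 fold changes of 0.38, 0.26, 0.29, -1.14 and -0.89, and none passed.

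Promoter sequence from RefSeq (GRCm38.p6) was searched over 250 bases before each annotated start, with 51 such windows for 41 of the 62 members. Sfrp1, Fzd8, Znrf3, Dkk3 and Wnt5a were not among them. The TCF/LEF core CTTTGA, on either strand, was in 6 of the 51 windows (11.8%) and in 13.8% of all 32851 windows. The NFAT core TGGAAA, the site of the factors that calcineurin activates, was in 6 (11.8%) against 18.6% of all, and the AP-1 site TGANTCA in 2 (3.92%) against 6.75%. Overlaps of one motif with another were allowed. Among tested members, Fzd1, Ror1 and Wnt5b held the TCF/LEF core and Ctnnb1, Rnf43 and Wnt5b the NFAT core. A match is a description of letters and not a site.

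The windows are shown for Wnt4, the sole member of the 5 with separate groups that had one, for Fzd5, the member with the next smallest p after Sfrp1 and Fzd8, and for Ctnnb1, the most abundant member with an NFAT core. They run 5′ to 3′ on the gene's strand, stop before the first base of an annotated exon, and carry motif matches in capitals (the NFAT core, read on the other strand, in Ctnnb1, and none in the others).
Wnt4, chr4:137277385-137277488, plus strand: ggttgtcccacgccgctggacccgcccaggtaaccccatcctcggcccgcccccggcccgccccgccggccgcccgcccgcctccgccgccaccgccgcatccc
Fzd5, chr1:64737752-64738000, minus strand: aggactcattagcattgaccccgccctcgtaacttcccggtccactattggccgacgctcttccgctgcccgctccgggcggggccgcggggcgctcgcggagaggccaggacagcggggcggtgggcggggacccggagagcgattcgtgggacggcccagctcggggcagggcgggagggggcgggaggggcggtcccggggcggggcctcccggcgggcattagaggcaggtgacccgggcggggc
Ctnnb1, chr9:120933150-120933399, plus strand: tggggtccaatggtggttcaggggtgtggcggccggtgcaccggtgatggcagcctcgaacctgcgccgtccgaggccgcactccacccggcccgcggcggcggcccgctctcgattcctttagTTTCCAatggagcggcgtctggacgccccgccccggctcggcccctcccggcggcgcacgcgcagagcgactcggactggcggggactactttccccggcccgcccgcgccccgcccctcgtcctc
The windows are rich in G and C, at 85.2% for Wnt4 over its 250 bases, 76.4% for Fzd5 and 74.8% for Ctnnb1, against a median of 52.4% over all windows.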

How the data were processed

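RNA of sorted distal convoluted tubule fragments was sequenced in 4 Control and 4 KO libraries, grouped by the deposited genotype label. The authors deposited raw read counts, in whole numbers, for each Ensembl gene. The programs STAR 2.7.4a, fastp 0.20.0 and bcl2fastq 2.20 and the build GRCm38.p6 are named, per the submitters' processing notes. How reads were counted, by strand and annotation, is not given in the sources used here, so reads of overlapping genes on opposite strands cannot be told apart. Symbols, positions and exon lengths came from GENCODE vM21 (GRCm38), in which 42347 of 42416 identifiers had a name. Exon lengths sum all annotated exons, which lowers the RPKM of genes with many isoforms.

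Genes with at least 10 counts in at least 4 libraries were fitted with edgeR 4.0.16 (TMM scaling, two-sided quasi-likelihood F test, genotype as the single factor, R 4.3.3), with Benjamini-Hochberg adjustment over all 14444 genes and a threshold of 0.05. Standard errors were taken as the log2 fold change over the root of the F statistic. Alternatives used DESeq2 1.42.0, limma 3.58.1 (voom with quality weights), other scalings and filters, a term for how the files were named, a block for the range of the animal number and the removal of each library. The genes named were all members past the threshold, with an unadjusted p under 0.05 or with separate groups, the 3 most abundant of each role, 8 feedback targets, and in each further list those past the threshold or the 3 with the smallest p. Fzd7 and the remaining members are given as values to account for every member. The members and lists were chosen with earlier results of these data known. Marker lists of the proximal tubule, connecting tubule and principal cells, intercalated cells, endothelium, fibroblasts and injured tubule held 0 genes past the threshold, of 7, 6, 6, 7, 4 and 4 tested, and so did those of podocytes (5) and leukocytes (5). Library numbers follow the order of deposit and pair nothing. Counting limits at 0 counts cover counting error only.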

Additional observations from a re-analysis of the deposited data

Results flagged for a closer look

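By Dixon's test at its 95% critical value for 4 samples, 3 values stood apart within their group, among 52 groups of named members checked, where chance flags about 1 in 20. Axin2 was at 0.944 CPM in KO library 3, while the remaining KO libraries lay at 0.424 to 0.451 CPM. Ror2 was at 1.70 CPM in Control library 4 (the rest of Control, 0.784 to 0.842 CPM), and at 1.54 CPM in KO library 2 (the rest of KO, 0.864 to 0.952 CPM). These 3 are close to the number that chance gives.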

How the results depend on the processing

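Sfrp1 kept its call under all 17 alternatives and Fzd8 under 16, the exception being the animal number block, which left 1 member called (Fzd8 1.78, adjusted p = 0.0579). Over all genes that block left 5 higher and 24 lower calls, against 177 and 121 without it. DESeq2 gave 426 and 327, limma-voom 283 and 229, library totals 241 and 89, and the term for file names 105 and 94. Removal of single libraries gave from 15 and 21 (without KO library 2) to 228 and 123 (without KO library 3). Leaving out 1 library at a time gave 2 to 3 members called. Where 3 were called, 1 of them lay outside the named genes defined above. Log2 fold changes ran from -2.10 to -1.76 for Sfrp1 and from 1.45 to 1.78 for Fzd8. Calls among the 19 tested targets moved from 1 to 4 with DESeq2, 5 with limma-voom and 3 with library totals. They moved to 2 with upper quartiles, without a filter and with edgeR's own filter. There were 0 calls with the term for file names, with the block, or without Control library 1 and KO library 4 together. That last alternative was chosen after seeing the data. Over the removal of single libraries the calls ranged from 0 to 2. Over all genes tested, DESeq2 called 5.22% and limma-voom 3.54%. Calls among the 58 other pathway genes moved from 0 to 3 with DESeq2, 2 with library totals, 1 with edgeR's own filter and 3 with limma-voom. The cause was not tested. Of 30 named genes tested, 26 kept their sign under every alternative. The others were near 0. Lgr4 turned to 0.0942 with library totals and 0.0169 without the 2 libraries together, and ranged from -0.15 to 0.0277 over single removals. Tcf7l2 turned to 0.0603 with library totals, 0.0886 with limma-voom and 0.0026 without the 2 libraries together, and ranged from -0.20 to 0.0477. Wnt5b turned to 0.021 with library totals. Ror2 turned to -0.0188 without the 2 libraries together, and ranged from -0.21 to 0.36. With library totals the all-gene median went from -0.02 to 0.13. The labels give no replicate numbers shared between groups, so no libraries were paired. The animal number block groups them by number range alone, with Control library 4 the sole library of its range. Depth limits the members with few counts: Axin2, Lgr5, Wnt4, Wnt7b and Dkk3 rest on 59 counts or fewer in every library.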
